A study of Rattus norvegicus with 6 samples.

Results

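Osteoclasts are the large cells, formed by fusion of monocyte precursors, that dissolve bone. The genes described here belong to their formation and function, and were read in skeletal muscle of newborn rats by their listed symbols. The list holds 10 genes. Of these, 8 had a row on the array, and *Tnfrsf11a*, which encodes the receptor RANK, and *Oscar*, a co-stimulatory receptor of osteoclasts, could not be matched to a row by symbol and are not analysed here. The 8 genes are 8 of 26298 array entries, counted after rows of a symbol were averaged. The list was drawn up with the difference between low and average birth weight pups already known, so that all values of its members below are a description and no test of them is given.

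RNA came from 3 LBW (low birth weight) and 3 ABW (average birth weight) pups, all male Wistar rats aged 1 day, with 1 single-colour NimbleGen array per pup. The LBW pups were from percentiles 5 to 25 of birth weight. For the ABW pups, labelled new born controls, the treatment protocol gives percentiles 50 to 75 and the sample characteristics give 25 to 75. The pups were grouped by weight alone, without diet, drug or genetic change, and whether pups shared a litter is not given in the sources used here. Each muscle sample joined soleus and gastrocnemius.

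Osteoclasts form when M-CSF (*Csf1*) keeps their precursors alive and RANKL (*Tnfsf11*), made by osteoblasts, osteocytes, growth plate cells and lymphocytes, binds RANK on them. Osteoprotegerin (*Tnfrsf11b*) is a soluble decoy receptor that captures RANKL. A mature osteoclast secretes acid through a vacuolar proton pump, and with it cathepsin K (*Ctsk*), which cleaves collagen, and tartrate-resistant acid phosphatase (*Acp5*), the classical stain for the cell. Skeletal muscle itself is not known to hold osteoclasts.

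The promoters of *Acp5* and *Snx10*, the members past the threshold described below, are shown first, with *Ctsk* and the RANKL gene beside them for comparison. They are from the RefSeq promoter table of the build GRCr8, which covers 250 bases before to 50 bases after each start. It matched 6 of the 10 listed genes with 7 starts, the other 4 being *Atp6v0d2*, *Tnfrsf11b*, *Csf1* and *Tnfrsf11a*. The letters searched on both strands were TGANTCA (AP-1, the site of Fos and Jun proteins), GAGGAA (PU.1), GGAAA (NFAT), CATGTG (M-box, read by Mitf) and CACGTG (E-box). The letters of PU.1 and NFAT can overlap. The 250 bases before each start are printed 5′ to 3′, and the capitals mark these letters or their reverse complement.
Acp5, downstream start (chr8:28943930-28944179, minus strand): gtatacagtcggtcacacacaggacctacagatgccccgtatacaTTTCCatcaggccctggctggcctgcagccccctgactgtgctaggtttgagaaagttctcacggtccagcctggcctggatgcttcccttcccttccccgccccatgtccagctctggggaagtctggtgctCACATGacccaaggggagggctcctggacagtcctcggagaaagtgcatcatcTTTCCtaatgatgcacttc
Acp5, upstream start (chr8:28945931-28946180, minus strand): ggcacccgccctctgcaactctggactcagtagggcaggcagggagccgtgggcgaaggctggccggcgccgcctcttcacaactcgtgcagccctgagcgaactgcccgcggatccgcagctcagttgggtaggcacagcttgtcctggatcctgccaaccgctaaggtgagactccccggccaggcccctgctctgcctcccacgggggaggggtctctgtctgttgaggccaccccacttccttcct
Snx10 (chr4:81943073-81943322, plus strand): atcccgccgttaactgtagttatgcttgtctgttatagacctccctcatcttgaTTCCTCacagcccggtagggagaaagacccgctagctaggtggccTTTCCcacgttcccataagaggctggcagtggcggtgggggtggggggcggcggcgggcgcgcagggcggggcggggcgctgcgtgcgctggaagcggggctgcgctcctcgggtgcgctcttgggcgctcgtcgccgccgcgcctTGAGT
Ctsk (chr2:185747298-185747547, plus strand): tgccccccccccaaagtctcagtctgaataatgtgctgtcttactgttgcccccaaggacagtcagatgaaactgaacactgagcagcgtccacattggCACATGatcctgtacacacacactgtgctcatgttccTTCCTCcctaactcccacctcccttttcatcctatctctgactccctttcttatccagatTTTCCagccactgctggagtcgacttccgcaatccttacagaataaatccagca
Tnfsf11 (chr15:60114480-60114729, minus strand): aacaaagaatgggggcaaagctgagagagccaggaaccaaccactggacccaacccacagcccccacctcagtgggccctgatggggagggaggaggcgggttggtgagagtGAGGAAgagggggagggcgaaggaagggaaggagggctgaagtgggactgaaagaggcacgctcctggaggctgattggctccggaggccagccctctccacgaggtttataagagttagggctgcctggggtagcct

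The letters of NFAT stood in 4 of the 7 windows, where 62.7% of all 33365 distinct windows of the table hold them. Those of PU.1 stood in 4 as well (27.6% of all windows), those of the M-box in 2 (14.0% of all windows), and those of the E-box in 0 (6.4% of all windows). The AP-1 letters were in 1 window (7.3% of all windows). This was the window of *Snx10*, where they begin 5 bases before the start and run across it, so that only TGAGT is seen in the printed run. The downstream start of *Acp5* had the NFAT letters 205 and 19 bases and the M-box letters 72 bases before it, and the upstream start had none of the 5 motifs. These matches describe letters only.

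**Figure D1:**
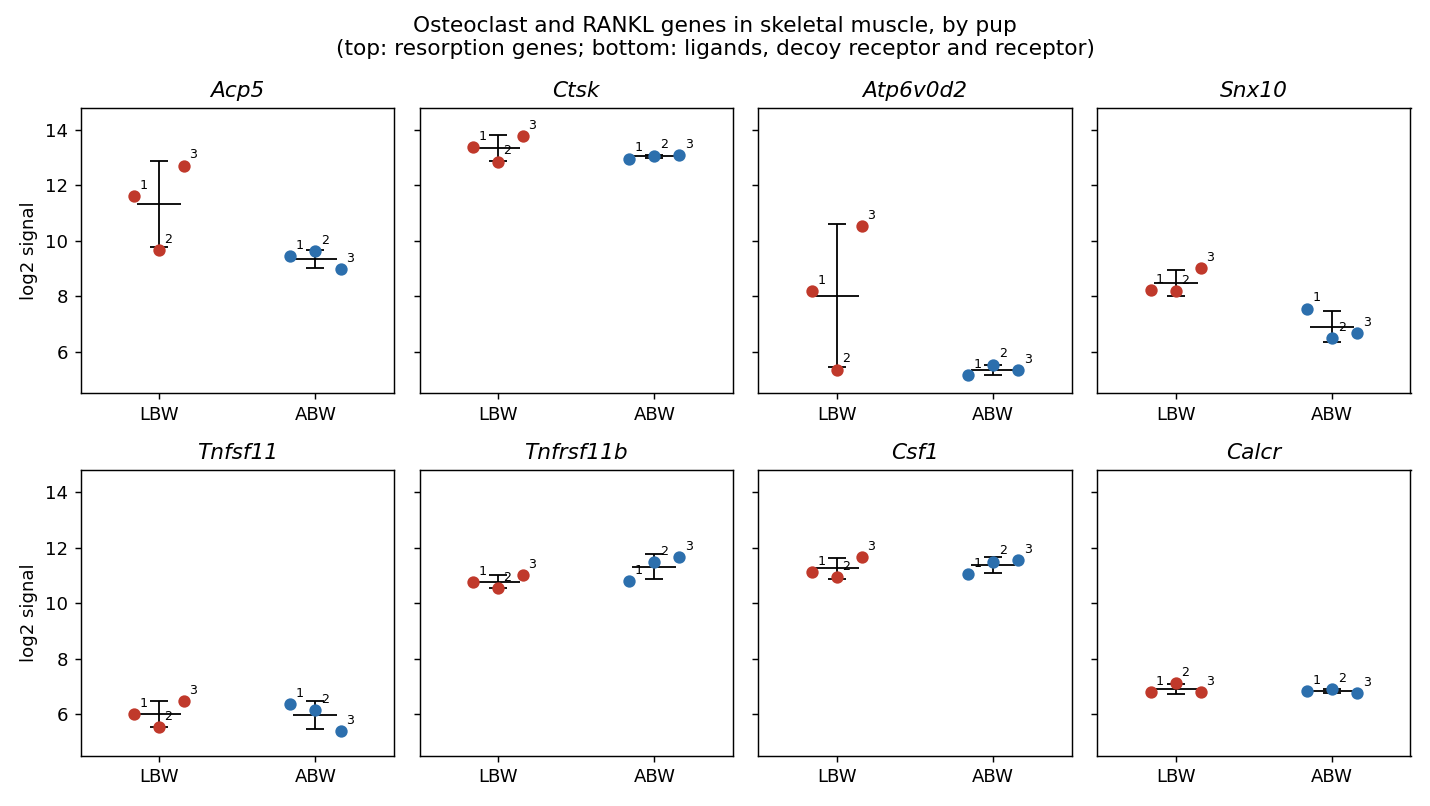
Log2 signal (vertical axis) of the 8 genes in the 3 LBW (red) and 3 ABW (blue) pups; points are pups, numbered by replicate, and black bars are the mean ± SD. *Atp6v0d2* is at 10.52 in LBW 3 and 8.19 in LBW 1, whereas LBW 2 at 5.35 lies among the ABW pups.

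Over all transcripts, the array of LBW 2 correlated best with ABW 1 (Pearson's r = 0.9925, across transcripts, which are not independent replicates), compared to 0.9913 with LBW 1 and 0.9872 with LBW 3. LBW 3 had the lowest correlations of the 6 arrays, from 0.9842 with ABW 3 to 0.9904 with LBW 1. The values of the members that moved most are given with and without LBW 2 and LBW 3. The labelled tissue showed its markers. The mean log2 signal of the 7 measured skeletal muscle genes was between 14.30 and 14.36 in LBW pups and between 14.19 and 14.36 in ABW pups. In bulk tissue, a higher signal of an osteoclast gene from more cells and from more RNA per cell cannot be told apart.

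The resorption genes had the larger differences between the groups, but unevenly so, as 2 of the 4 passed the threshold of the study. All 4 had a higher mean in LBW than in ABW pups, with a median difference of 1.77 on the log2 scale, whereas the 4 ligand, decoy and receptor genes had a median difference of -0.04. Of the latter genes, *Tnfsf11* and the average of the *Calcr* rows had a signal that could not be told from background, which limits this comparison. A higher mean in LBW was found for 44.4% of all entries. The median over all entries was -0.023. At the threshold of the study, a 1.5-fold change together with p below 0.05 before adjustment, the limma fit across all entries placed 2 of the 8 genes, *Acp5* and *Snx10*, past it, both higher in LBW. Over all 26298 entries the same rule called 4.27% (2.38% higher in LBW), or 4.28% of the 26419 rows before averaging, and nothing is read from the members' count because they were listed with this contrast known. Both genes are also in the list of highest genes that the study printed from these arrays. After Benjamini-Hochberg adjustment by limma, 0 of the 8 genes and 0 of all entries had an adjusted p under 0.05, while 3249 entries (12.4%) had an unadjusted p under 0.05.

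*Acp5* (NM_019144), the tartrate-resistant acid phosphatase, was at a log2 signal of 11.60, 9.65 and 12.71 in LBW 1, 2 and 3. In ABW 1, 2 and 3 it was at 9.45, 9.61 and 8.98. LBW 1 and LBW 3 were far above every ABW pup, and LBW 2 was higher than ABW 2 by less than the spread of the ABW pups, so that the groups did not overlap but nearly touched. The log2 difference was 1.97 (SE 0.72, n = 3 per group), which is 3.93-fold. It was 2.81 without LBW 2 and 1.28 without LBW 3. Leaving out LBW 2 kept *Acp5* past the threshold, and leaving out any other pup did not.

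*Atp6v0d2* (NM_001011972) encodes a subunit of the vacuolar proton pump that is enriched in osteoclasts and takes part in the fusion of their precursors. It had the largest difference of the 8 genes, and the least even one. The log2 signal was 8.19, 5.35 and 10.52 in LBW 1, 2 and 3, and 5.15, 5.53 and 5.34 in ABW 1, 2 and 3. LBW 3 was thus 36.3-fold and LBW 1 7.23-fold above the ABW mean, whereas LBW 2 lay within the ABW values. The log2 difference of 2.68 (SE 1.18, n = 3 per group) did not reach the threshold of the study with all pups, and was 4.02 and past it without LBW 2. Without LBW 3 it was 1.43 and not past it. It also passed when the dimmest 25% of rows were left out and with an intensity trend in the fit.

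How low the ABW signals of *Atp6v0d2* lie can be seen from the rows of olfactory receptor genes, used here as a guide to background. Of these 1184 rows, 95% were below a log2 signal of 7.25 to 7.54, depending on the array. *Atp6v0d2* was above this level only in LBW 1 and LBW 3, so that its fold difference is set against a signal that cannot be told from background here.

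*Snx10* (NM_001013085) encodes a sorting nexin that osteoclasts need for the traffic of acid vesicles. It was at 8.21, 8.19 and 9.0 in LBW 1, 2 and 3 and at 7.55, 6.48 and 6.68 in ABW 1, 2 and 3. All 3 LBW pups, LBW 2 included, were above every ABW pup, which set it apart from *Acp5* and *Atp6v0d2* in that LBW 2 was level with LBW 1. The log2 difference was 1.57 (SE 0.34, n = 3 per group), or 2.96-fold. It stayed between 1.30 and 1.89 with each pup left out in turn, past the threshold each time (1.71 without LBW 2 and 1.30 without LBW 3). ABW 2 and ABW 3 were below the level that holds 95% of the olfactory receptor rows on their arrays, so that this fold is in part set against background as well.

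*Ctsk* (NM_031560), which fibroblasts also express, was at 13.36, 12.85 and 13.78 in LBW 1, 2 and 3 and at 12.96, 13.07 and 13.08 in ABW 1, 2 and 3. LBW 2 was below all ABW pups and the other LBW pups were above them. The log2 difference was 0.29 (SE 0.23, n = 3 per group), which became 0.53 when LBW 2 was left out and 0.07 when LBW 3 was. The SD was 0.47 in LBW and 0.07 in ABW pups. Of the 8 genes, the values of the groups did not overlap for *Acp5* and *Snx10*, and 17.4% of all entries had no overlap.

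Among the ligands, *Tnfsf11* (NM_057149), the RANKL gene, was at 6.0, 5.53 and 6.46 in LBW 1, 2 and 3 and at 6.35, 6.14 and 5.39 in ABW 1, 2 and 3. The groups overlapped almost entirely, with a log2 difference of 0.04 (SE 0.32, n = 3 per group), and in none of the 6 pups was the signal above the level that holds 95% of the olfactory receptor rows. A signal of RANKL mRNA could therefore not be told from background here. *Csf1* (NM_023981), the M-CSF gene, was at 11.13, 10.95 and 11.67 in LBW 1, 2 and 3 and at 11.04, 11.50 and 11.56 in ABW 1, 2 and 3. Its groups overlapped too, with a log2 difference of -0.11 (SE 0.23, n = 3 per group).

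*Tnfrsf11b* (NM_012870), the decoy receptor osteoprotegerin, was the member with the largest difference downwards. It was at 10.76, 10.55 and 11.01 in LBW 1, 2 and 3 and at 10.79, 11.49 and 11.67 in ABW 1, 2 and 3. ABW 1 lay within the LBW values and the other ABW pups lay above them. The log2 difference was -0.54 (SE 0.25, n = 3 per group), or 0.686-fold, and it was -0.81 and past the threshold of the study without ABW 1. It also passed with array weights, at -0.63.

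RANKL and osteoprotegerin act against each other, so their log2 signals were subtracted in each pup and set against the ABW mean. This difference was 0.60, 0.34 and 0.81 in LBW 1, 2 and 3. In ABW 1, 2 and 3 it was 0.91, 0.01 and -0.92. The ABW pups spanned the LBW values, and the low signal of *Tnfsf11* limits this value as well.

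*Calcr*, the calcitonin receptor of mature osteoclasts, had 2 rows. Their average was at 6.79, 7.11 and 6.80 in LBW 1, 2 and 3 and at 6.83, 6.91 and 6.76 in ABW 1, 2 and 3, and no pup was above the level that holds 95% of the olfactory receptor rows. The log2 difference was 0.07 (SE 0.12, n = 3 per group). The rows differed in direction, with 0.18 (SE 0.27) for NM_001034015, where LBW 2 was the highest pup at 8.34, and -0.04 (SE 0.13) for NM_053816. Taken alone, NM_001034015 was above that level in LBW 2 (8.34), ABW 1 (7.66) and ABW 2 (7.62), and NM_053816 in none of the pups, so that the rows also differed in whether a signal was seen.

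**Figure D2:**
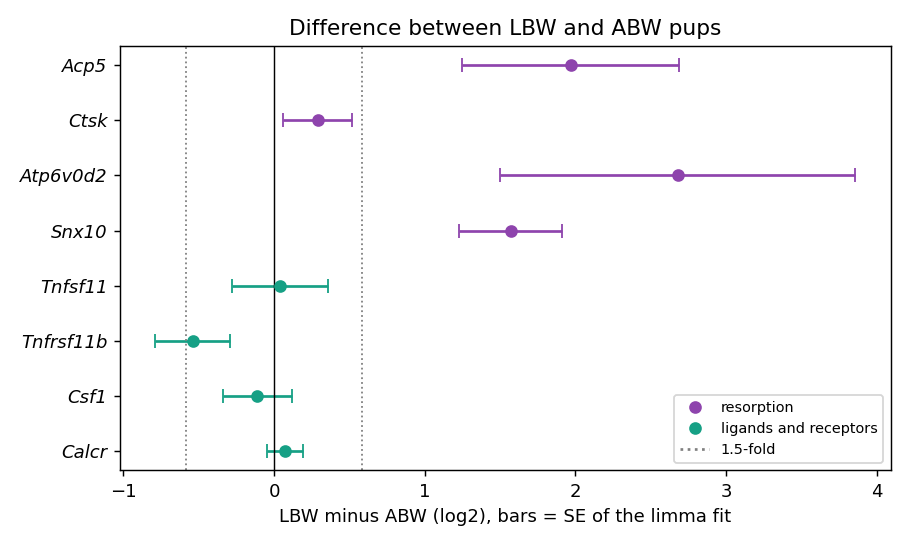
LBW minus ABW difference (log2, horizontal axis) of each gene with the SE of the limma fit; dotted lines mark a 1.5-fold change. *Acp5*, *Atp6v0d2* and *Snx10* lie between 1.57 and 2.68, and the 4 ligand, decoy and receptor genes lie between -0.54 and 0.07.

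To compare the roles within each pup, the ABW mean of each gene was subtracted and the log2 values of a role were averaged. The resorption genes were at 1.69, 0.35 and 2.85 in LBW 1, 2 and 3, compared to 0.12, 0.02 and -0.14 in ABW 1, 2 and 3. The ligand, decoy and receptor genes were at -0.20, -0.33 and 0.12 in LBW pups and at -0.12, 0.14 and -0.02 in ABW pups. This average includes *Tnfsf11* and *Calcr*, whose signals could not be told from background. Resorption genes minus ligands and receptors was 1.88, 0.68 and 2.73 in the LBW pups, and between -0.12 and 0.24 in the ABW pups. In LBW 2, *Snx10* was at 1.29, while *Acp5* was at 0.30, *Atp6v0d2* at 0.01 and *Ctsk* at -0.19. The resorption value of LBW 2 thus rests largely on *Snx10*, and its difference between the roles also on the low ligand value of -0.33. The order LBW 3, LBW 1, LBW 2 was shared by the resorption genes and by *Tnfsf11*, *Tnfrsf11b* and *Csf1*, although the last 3 moved far less. LBW 2 was the lowest LBW pup for 7 of the 8 genes, *Calcr* being the exception. LBW 3 was the highest of all 6 pups for 6 of the 8, the exceptions being *Calcr* and *Tnfrsf11b*. Without *Atp6v0d2*, the resorption genes were at 1.30, 0.47 and 2.07 in LBW 1, 2 and 3.

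**Figure D3:**
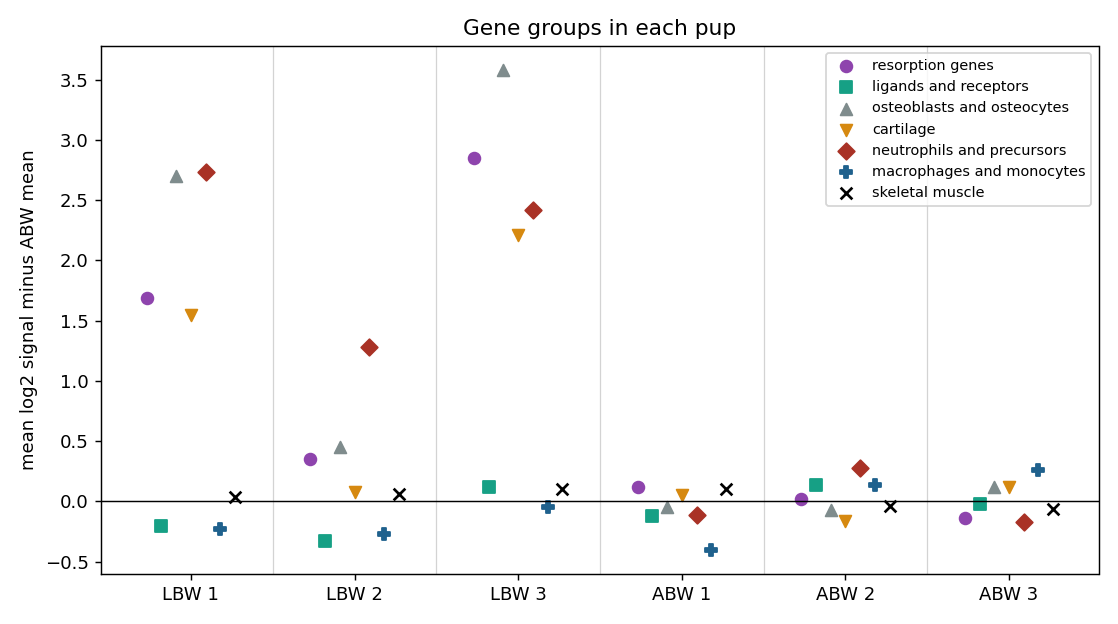
Mean log2 signal of each gene group minus its ABW mean (vertical axis) in each of the 6 pups (horizontal axis); each symbol is a gene group. The resorption genes reach 2.85 in LBW 3 and the osteoblast and osteocyte markers reach 3.58 in the same pup, while the macrophage and skeletal muscle markers stay within 0.40 of 0 in all pups.

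Markers of other cells moved with the resorption genes. Of 12 measured osteoblast and osteocyte genes (of 13 listed), 11 had a higher mean in LBW and 7 passed the threshold of the study, with *Spp1* at 5.02 (SE 1.05, adjusted p = 0.251 by limma) and *Ibsp* at 4.73 (SE 1.10, adjusted p = 0.265 by limma), which encode osteopontin and bone sialoprotein. The mean log2 signal of these 12 genes ran from 8.48 to 11.61 in LBW pups and from 7.95 to 8.15 in ABW pups. Relative to the ABW mean it was 2.70, 0.45 and 3.58 in LBW 1, 2 and 3, the same order as the resorption genes. Cartilage markers (6 of 10 measured) were at 1.55, 0.08 and 2.21 in LBW 1, 2 and 3, and ran from 8.55 to 10.68 in LBW and from 8.31 to 8.59 in ABW pups. *Panx3* (3.20, SE 1.15, adjusted p = 0.352 by limma) and *Acan* (2.07, SE 0.84, adjusted p = 0.392 by limma) differed most among them. Of the 6, 5 had a higher mean in LBW and 3 passed the threshold of the study. Those that did not pass were *Comp* at 0.83 (SE 0.60), *Col2a1* at 0.33 (SE 0.22) and *Matn1* at -0.05 (SE 0.13).

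The 5 measured neutrophil markers (of 8 listed) all passed the threshold of the study, at 2.73, 1.28 and 2.42 in LBW 1, 2 and 3. Their mean log2 signal ran from 9.19 to 10.64 in LBW and from 7.74 to 8.19 in ABW pups, with *Mmp8* at 3.03 (SE 0.53, adjusted p = 0.216 by limma) and *S100a9* at 2.19 (SE 0.35, adjusted p = 0.216 by limma). Macrophage and monocyte markers, which mark the lineage that osteoclasts come from, were not higher in LBW pups as a group. Relative to the ABW mean they were at -0.23, -0.27 and -0.05 in LBW 1, 2 and 3. This is the pup order of the resorption genes, within a far smaller range. In ABW 1, 2 and 3 they were at -0.40, 0.14 and 0.26. Of the 6 measured (of 10 listed), 0 passed the threshold, and their mean log2 signal ran from 10.57 to 10.78 in LBW and from 10.44 to 11.10 in ABW pups. The mean was higher in LBW for 2 of the 6 and lower for 4, with *Adgre1* at -0.51 (SE 0.39) and *Cx3cr1* at -0.31 (SE 0.24) differing most. Of the 4 measured genes on the lymphocyte list (of 7 listed), 2 had a higher and 2 a lower mean in LBW, so that the list did not move as 1. *Cd4* was past the threshold at -0.61 (SE 0.18, adjusted p = 0.302 by limma) and *Cd3g* was at 0.25 (SE 0.67). The mean log2 signal of the 4 ran from 7.39 to 7.95 in LBW and from 7.70 to 7.96 in ABW pups. Of the 7 measured skeletal muscle genes (of 8 listed), 0 passed, with *Myog* at 0.25 (SE 0.12) and *Des* at 0.22 (SE 0.10). Of these markers, 5 osteoblast, 3 cartilage and all 5 neutrophil genes are in the list of highest genes that the study printed from these arrays, so that their counts are no independent evidence of a direction. *Runx2*, *Col10a1*, *Camp* and *Ngp* were matched to a row only through that printed list. The counts and means of the osteoblast, cartilage and neutrophil lists thus lean towards higher values in LBW. *Mmp8* in all ABW pups, *Panx3* in all ABW pups and LBW 2, and *Spp1* in ABW 1 and ABW 3 were below the level that holds 95% of the olfactory receptor rows. The part of these cells in the signals of the resorption genes was not tested, and no marker can be called absent because the arrays give no detection call.

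The rest of the pathway was read from lists of 141 other genes, of which 94 had a row. *Mmp13* was matched to a row only because the study printed it among its highest genes. Its place in the 94 thus depended on its result, and the share that passed is not free of the outcome. The limma fit placed 5 of the 94 (5.32%) past the threshold of the study, 3 higher and 2 lower in LBW, next to 4.27% of all entries, and 0 had an adjusted p under 0.05, with 11 at an unadjusted p under 0.05. The median log2 difference of the 94 genes was 0.01. *Fos*, *Mmp13* and *Mmp9* were higher, and *Wnt5a* and *Ccl2* were lower in LBW. Without LBW 2, 10 of the 94 passed, next to 5.87% of all entries. These were *Fos*, *Mmp13*, *Mmp9* and *Wnt5a* again, and *Vdr* (2.08), *Cd9* (0.72), *Itgb3* (0.70), *Pth1r* (0.61), *Fosl2* (0.58) and *Ptgs2* (-0.72), whereas *Ccl2* (-0.58) was lost. *Mmp13* then had an adjusted p of 0.0343 by limma, the only one of the 94 under 0.05, next to 0.472% of all entries in that fit.

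**Figure D4:**
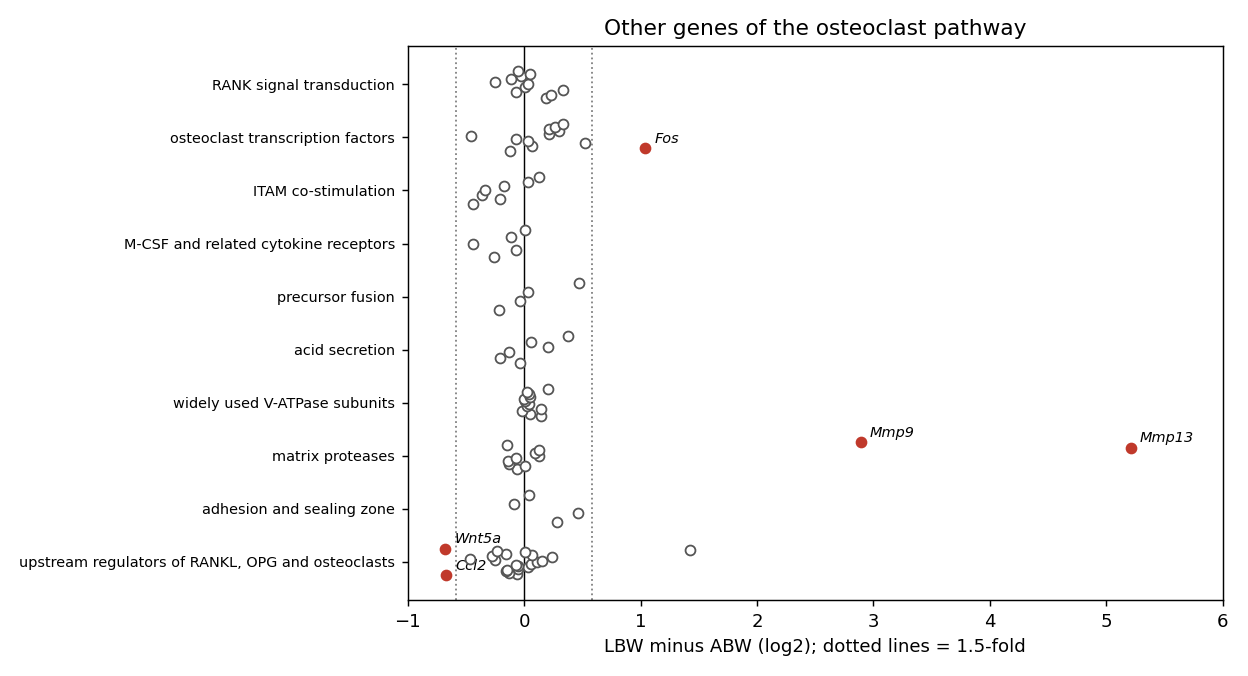
LBW minus ABW difference (log2, horizontal axis) of 94 other genes of the pathway, grouped by role (vertical axis); filled red points passed the threshold of the study and dotted lines mark a 1.5-fold change. Apart from *Mmp9*, *Mmp13*, *Fos* and 1 open point at 1.42 (*Vdr*), all genes lie between -0.68 and 0.52.

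Of the signal carriers downstream of RANK, 11 of 25 had a row and 0 passed, with differences between -0.25 (*Mapk3*, a MAP kinase; SE 0.11) and 0.33 (*Ikbkg*, a regulatory subunit of the kinase that activates NF-κB; SE 0.16). *Traf6*, *Nfatc1* and *Mitf*, at the centre of the RANK response, could not be matched to a row. Of 12 measured osteoclast transcription factors (of 18 listed), *Fos*, whose protein is required for osteoclast formation, passed. It was at 9.77, 10.32 and 9.49 in LBW 1, 2 and 3 and at 8.86, 8.67 and 8.93 in ABW 1, 2 and 3. The groups were apart (exact permutation test, 2-sided p = 0.1, which no comparison of 3 with 3 pups can go below), with a log2 difference of 1.04 (SE 0.21, adjusted p = 0.251 by limma). LBW 2 was the highest pup, which is the reverse of its place in *Acp5*, *Ctsk* and *Atp6v0d2*. *Fos* stayed past the threshold with each pup left out, at 0.81 to 1.22. An unadjusted p under 0.05 with a fold change under 1.5 was also seen for *Fosl2* at 0.52, *Jund* at 0.30 and *Jun* at -0.46, which were picked after their values were seen.

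The genes of the acid secretion machinery differed far less than *Atp6v0d2*. Of the 6 measured (of 7 listed), 0 passed. *Tcirg1*, the osteoclast-enriched subunit of the pump, was at 0.38 (SE 0.24) and *Clcn7*, a chloride transporter beside it, at -0.21 (SE 0.19). Relative to the ABW mean, the 6 genes averaged 0.03, -0.14 and 0.24 in LBW 1, 2 and 3, the pup order of *Atp6v0d2*. In ABW 1, 2 and 3 they averaged 0.06, 0.06 and -0.12. *Tcirg1* was at 12.09, 11.79 and 12.54 in LBW 1, 2 and 3 and at 12.09, 11.73 and 11.45 in ABW 1, 2 and 3, and LBW 3 was its highest pup. The 12 measured pump subunits that most cells use (of 16 listed) were between -0.02 and 0.20, and 0 passed, with *Atp6v1h* at 0.20 (SE 0.13) and *Atp6v0c* at 0.14 (SE 0.09). *Atp6v0d1*, the widely used counterpart of *Atp6v0d2*, was at 0.02 (SE 0.10) and was picked for that relation.

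Among the 11 matrix proteases, all of which were measured, 2 passed. *Mmp13*, the collagenase of osteoblasts and hypertrophic chondrocytes, was at 10.62, 8.59 and 12.78 in LBW 1, 2 and 3 and between 5.40 and 5.57 in ABW pups, which is a log2 difference of 5.21 (SE 0.95, adjusted p = 0.229 by limma). *Mmp9*, a gelatinase of osteoclasts and other cells, was at 9.50, 6.49 and 11.40 in LBW 1, 2 and 3. In ABW 1, 2 and 3 it was at 6.53, 5.96 and 6.24, so that LBW 2 lay within the ABW values as for *Atp6v0d2*. Its log2 difference was 2.89 (SE 1.13, adjusted p = 0.381 by limma), past the threshold when LBW 2 was left out (4.21) and not when any other pup was. The ABW signals of *Mmp13* and *Mmp9* were all below the level that holds 95% of the olfactory receptor rows, as was *Mmp9* in LBW 2, so that these differences are set against a signal that cannot be told from background. The other 9 proteases, lysosomal cathepsins for the most part, had differences between -0.15 and 0.13. The study printed *Mmp13* and *Mmp9* among its highest genes, so that they are no independent evidence of a direction.

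In the remaining roles no gene passed with all pups, although single genes did with a pup left out. In ITAM co-stimulation, the second signal that osteoclast precursors need, 0 of 7 measured genes (of 12 listed) passed, with *Blnk* at -0.44 (SE 0.32) and *Lcp2* at -0.36 (SE 0.24). *Blnk* passed without ABW 1, at -0.75. Of the 5 measured receptor and cytokine genes of the M-CSF group (of 6 listed), 0 passed. *Csf1r*, the M-CSF receptor, which is also on the macrophage list, was at -0.26 (SE 0.22), and *Csf2rb*, a shared chain of the GM-CSF receptor, at -0.44 (SE 0.18). *Csf2rb* passed without ABW 1, at -0.63. Of the fusion genes, 4 of 8 were measured and 0 passed, with *Cd9* at 0.47 (SE 0.22) and *Cd44* at -0.22 (SE 0.24), and *Dcstamp* and *Ocstamp*, which drive fusion, could not be matched to a row. *Cd9* passed without LBW 2, at 0.72. In adhesion and sealing, 0 of 4 measured genes (of 10 listed) passed, with *Itgb3*, the integrin subunit of osteoclasts, at 0.46 (SE 0.29) and *Gsn*, an actin severing protein, at 0.28 (SE 0.09). *Itgb3* passed without LBW 2, at 0.70.

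Of the genes that regulate RANKL, osteoprotegerin or osteoclasts from outside, 22 of 28 were measured and 2 passed. *Wnt5a*, which raises RANK on precursors, was at 9.57, 9.22 and 9.19 in LBW 1, 2 and 3 and at 9.76, 10.00 and 10.24 in ABW 1, 2 and 3. The groups were apart (exact permutation test, 2-sided p = 0.1), with a log2 difference of -0.68 (SE 0.16, adjusted p = 0.269 by limma), which was under a 1.5-fold change without ABW 3 (-0.56). *Ccl2*, a chemokine that draws monocytes, was at 10.39, 10.64 and 11.39 in LBW 1, 2 and 3 and at 11.68, 11.34 and 11.40 in ABW 1, 2 and 3. The groups overlapped, and the log2 difference of -0.67 (SE 0.26, adjusted p = 0.378 by limma) stayed past the threshold when LBW 3 was the pup left out (-0.96) and not for any other. *Vdr*, the vitamin D receptor, which raises *Tnfsf11* in osteoblasts, had the largest difference of the 22 genes, at 1.42 (SE 0.61), without passing. It was at 8.57, 6.80 and 8.99 in LBW 1, 2 and 3 and at 5.96, 6.98 and 7.16 in ABW 1, 2 and 3, so that LBW 2 again lay within the ABW values, and it was picked after its values were seen. LBW 2 and all ABW pups were below the level that holds 95% of the olfactory receptor rows.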

How the data were processed

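Total RNA of skeletal muscle from 3 LBW and 3 ABW pups was hybridized to the NimbleGen rat 12x135K array, with 5 probes for each of 26419 transcripts designed on the build RGSC3.4. The authors deposited 1 normalized log2 value per transcript and pup, made with in-house R scripts and Bioconductor. The submitters' processing notes name RMA. The background correction is not given in the sources used here, and the values hold no detection call, so that low signals cannot be separated from background. Precision is set by the number of arrays, as there are no counts. The limma p-values set the group difference against each entry's spread between these pups, moderated by the spread over all entries.

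A symbol was given to 9781 rows (37.0%), 9747 of them from the RefSeq gene table of GRCr8 and 34 from the accessions in the supplementary tables of the paper. Those 34 rows could be named only because the study printed them among its most changed genes, in either direction. The array design and GRCr8 differ in build, so gene coordinates were not used beyond the printed promoters. Rows of a symbol were averaged, which left 26298 entries. These were fitted in R 4.3.3 with the package limma 3.58.1 (functions lmFit and eBayes, 2-sided, Benjamini-Hochberg adjustment over all entries), checked on simulated arrays. The call rule was that of the study, a 1.5-fold change together with p below 0.05 before adjustment. Differences are LBW minus ABW means of log2 values, and SE is that of the fit. The olfactory receptor rows were taken by symbol.

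The members, the lists and the rules for named genes were chosen with earlier results of these data known. Named are all members, for each pathway list up to 4 genes past the threshold or otherwise the 2 with the largest difference, the 2 such genes of each marker list, and the 5 named rows nearest in pattern to the resorption genes and to *Tnfsf11*. The fit was repeated without each pup, with a block for the replicate number, after quantile normalization or median centring, without the dimmest 25% of rows, with array weights, with a robust or intensity-dependent variance, with the methods' Student test, at a 2-fold change, and with rows of a symbol kept apart.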

Additional observations from a re-analysis of the deposited data

How the results depend on the processing

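Resorption genes minus ligands and receptors lay between 1.28 (without LBW 3) and 2.31 (without LBW 2). It was 1.76 after quantile normalization, 1.79 without the dimmest 25% of rows, 1.69 with array weights and 1.72 with rows of a symbol kept apart. The block, median centring, the other variance models, the methods' Student test and the 2-fold limit cannot move it. With these settings included, the median difference of the 8 genes lay between 0.09 and 0.40. The number of the 8 genes past the threshold of the study, 2 with all pups, was 1 by the methods' Student test (*Snx10*) and between 1 and 3 with a pup left out. It was 3 with an intensity trend, with array weights and without the dimmest 25% of rows. *Tnfsf11* was left out by that last setting. The number of other pathway genes past it, 5 with all pups, was 3 by the methods' Student test and at a fold change of at least 2, and between 3 and 10 with a pup left out.

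Over all 26419 rows, 1131 passed, 586 by the methods' Student test and 336 at a fold change of at least 2, and the other alternatives gave between 806 and 1555. The number with an adjusted p under 0.05 was 0, and between 0 and 126 with a pup left out, where 126 came from leaving out LBW 2. The cause of these changes was not tested. Of the 19 pathway genes followed singly, 0 that passed the threshold changed direction, and *Cd44*, which did not pass, was at 0.02 without LBW 1.

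Pups with the same replicate number deviated together only weakly from their group means (r = 0.087, 0.103 and 0.055), so the numbers were not taken as a pairing. With a block for this number, 1236 rows passed the threshold and 0 after adjustment, with 2 of the 8 genes and 4 of the other pathway genes, *Ccl2* being the gene lost. In this balanced design the block cannot move a difference of group means, so that the median of the 8 genes (0.18) and the difference between the roles (1.77) are the same by construction.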

Other observations

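The named genes nearest in pattern to the resorption genes, by the root mean square distance of the log2 values over the 6 pups after subtraction of the ABW mean, were searched among 9652 symbols. *Hapln1* and *Chad*, both of cartilage matrix, were at a distance of 0.33, and *Sp7*, a transcription factor of osteoblasts, was at 0.37. *LOC301772* (0.33) and *RGD1560135* (0.34), which the study also printed among its highest genes, were between them. *Hapln1* was at 1.12, -0.04 and 2.44 in LBW 1, 2 and 3, and *Chad* was at 2.25, -0.04 and 3.02. Both were thus at the ABW level in LBW 2, where the mean of the resorption genes was at 0.35. For *Tnfsf11*, the nearest genes were *Cxxc4* (0.12), *Cryge* (0.15), *Slco2a1* (0.16), *Ppp1r14d* (0.16) and *Grip2* (0.18), and none of them is on the lists of pathway or marker genes. As the signal of *Tnfsf11* was not above the level that holds 95% of the olfactory receptor rows in any pup, these are distances to a pattern that cannot be told from background. These distances describe 6 pups and say nothing of shared function.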
